A study of Mus musculus with 2 samples.

Results

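The 9 genes described here mark pituitary cell lineages other than the gonadotrope, or the early pituitary. They are Hesx1, Lhx4, Pou1f1, Gata2, Tbx19, Gh, Prl, Tshb and Pomc. They were chosen by gene name as 9 of the 35019 genes named on the array, and each had 1 probe printed in 1 spot. The study measured total RNA from 2 samples labelled GT1-7, an immortalised line of neurons from mouse hypothalamus, with 1-colour (Cy3) Agilent arrays. One group of 1 array was treated with 50 nM GnRH, the decapeptide that drives gonadotropin release, for 30 min, and the other group of 1 array had DMSO for 30 min as its vehicle. The labels give neither the number of dishes behind an array nor any repeat, so every difference is one between 2 arrays and no test was made. The free-text description of both samples names bradykinin and A549 cells, while all the other labels name GT1-7.

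In the developing pituitary, Hesx1 is an early homeobox repressor and Lhx4 a LIM homeobox factor needed for the growth of the gland's primordium. Pou1f1 (Pit-1) then directs somatotropes, lactotropes and thyrotropes, which make growth hormone (Gh), prolactin (Prl) and the thyrotropin beta subunit (Tshb), and Gata2 acts in thyrotropes and gonadotropes. Tbx19 (Tpit) is the T-box factor of the cells that make pro-opiomelanocortin (Pomc), the corticotropes and melanotropes.

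The probes of 8 members are shown because each member rests on 1 probe, so its letters define what was measured. They are given 5′ to 3′ on the sense strand, whole for the Pou1f1, Gh and Pomc probes and as bases 31 to 60 for the others. Capitals mark AATAAA, the hexamer known as the polyadenylation signal.
Hesx1: cagaagaaatcaatggaaattccaagtact
Lhx4: tttcaaAATAAAgtcagttctaaaggctag
Pou1f1: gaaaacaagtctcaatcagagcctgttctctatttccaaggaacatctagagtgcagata
Gata2: gttttattttgaaactcgttttttgggtcc
Tbx19: acgcttaggttgcaaagtcagcttggtcta
Gh: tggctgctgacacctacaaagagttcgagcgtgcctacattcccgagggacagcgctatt
Prl: tgcatgcttgggtgcaattggtctcctctt
Pomc: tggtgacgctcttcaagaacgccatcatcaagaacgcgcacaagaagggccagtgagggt
The search used AATAAA on the sense strand and its reverse complement TTTATT for the other strand. AATAAA stood in 1 of the 9 probes, that of Lhx4, and in 10.1% of the 55681 probes of the array, while TTTATT, present in the Gata2 stretch shown, stood in 3.74% of them. The GC share of the probes ran from 35% in Lhx4 to 55% in Gh and Pomc.

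Positions are given for the 8 probes shown. In the array's mm9 coordinates, the probes of the early factors lie at chr14:27815304-27815363 on the plus strand (Hesx1) and chr1:157548856-157548915 on the minus strand (Lhx4). Those of the lineage factors lie at chr16:65534256-65534315 on the plus strand (Pou1f1), chr6:88156362-88156421 on the plus strand (Gata2) and chr1:167068819-167068878 on the minus strand (Tbx19). The Prl probe lies at chr13:27156972-27157031 and the Pomc probe at chr12:3960413-3960472, both on the plus strand. The Gh probe, at chr11:106162492-106162735 on the minus strand, covers 244 genomic bases, more than its own 60. By the array's annotation the probes begin at base 206 of the transcript for Gh, 793 for Prl, 801 for Pomc, 815 for Pou1f1, 929 for Hesx1, 1759 for Lhx4, 1767 for Tbx19 and 2578 for Gata2. The choice of which probes to show whole took the others to lie after the coding part. That was not checked against an annotation, and coding or UTR position was not otherwise assigned here.

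Processed signals, the scanner software's background-subtracted and detrended intensities, were compared after log2 and subtraction of each array's 75th percentile (541 on the GnRH array and 578 on the vehicle array). Of the non-control spots, 56.9% on the GnRH array and 55.2% on the vehicle array carried the mark "well above background", and no spot was saturated. The 308 negative control spots had a median signal of 3.20 on the GnRH array and 3.81 on the vehicle array. As a check of the label, Gnrh1, the hormone's own precursor gene and the marker of GnRH neurons, was well above background on neither array by either of its probes, which had signals of 10.3 and 8.60 on the GnRH array and 7.94 and 6.23 on the vehicle array. The brighter probe of Cga, the shared subunit of the gonadotropins and thyrotropin, gave 69481 on the GnRH array and 80508 on the vehicle array. Its other probe gave 246 on the GnRH array and 196 on the vehicle array. For Gnrhr, the GnRH receptor, the brighter probe gave 13656 on the GnRH array and 14861 on the vehicle array. The other Gnrhr probe gave 3636 on the GnRH array and 3785 on the vehicle array. Of the hormone-specific gonadotropin subunits, Lhb was at 72.1 on the GnRH array and 71.5 on the vehicle array, well above background on both, and Fshb was well above background on neither. Among other gonadotrope genes, Nr5a1 was at 28614 on the GnRH array and 33412 on the vehicle array. The brighter Foxl2 probe gave 25329 on the GnRH array and 26688 on the vehicle array, and the other gave 145 and 139. Nr0b1 was at 969 on the GnRH array and 1060 on the vehicle array. Gnrh1, the defining marker of the labelled cell type, was not detected by that mark, while 6 of 7 gonadotrope genes were on both arrays.

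Most of the lineage markers were at or near background on both arrays. On the GnRH array 4 of the 9 members were well above background (Lhx4, Gata2, Tbx19 and Gh), and on the vehicle array 2 of the 9 were (Lhx4 and Gata2). Among all 35019 genes the share was 63.3% on the GnRH array and 61.6% on the vehicle array. By the looser mark, a signal that is positive and significant, 8 of the 9 members (all but Pou1f1) passed on the GnRH array and 6 of the 9 (Hesx1, Lhx4, Gata2, Tbx19, Gh and Pomc) on the vehicle array, against 80.3% and 77% of all genes. No member's spot was marked as an outlier on either array. The headers' detection-limit metric lay inside its range for the GnRH array and outside it for the vehicle array, and its part in these counts was not tested.

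**Figure D1:**
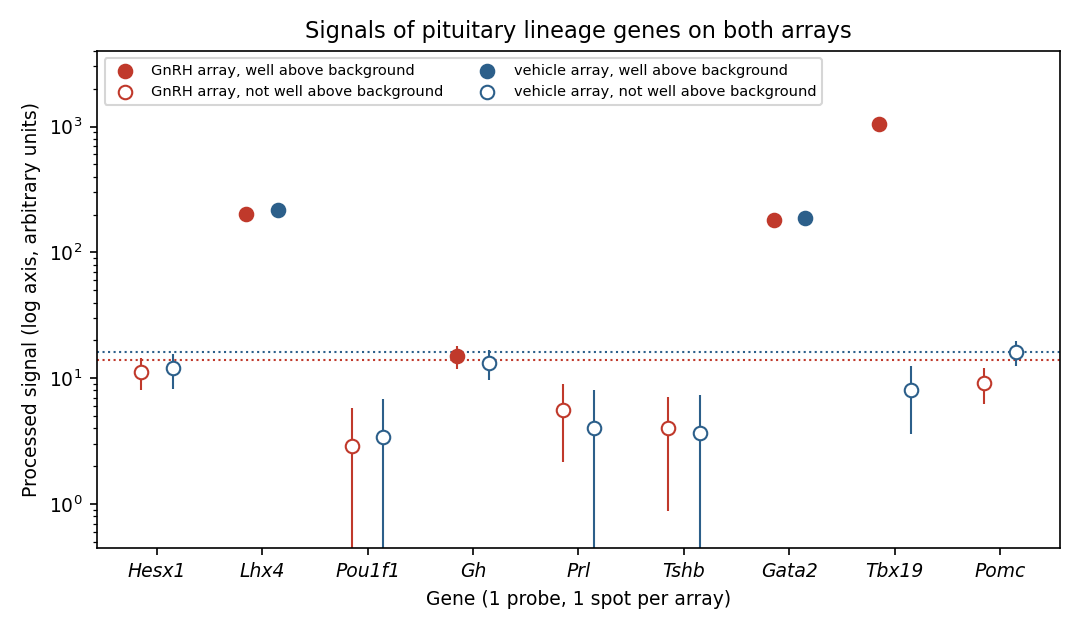
Processed signals (log axis) of the 9 genes, 1 spot per array, with the scanner's error as bars; bars that reach the lower edge extend below it. Filled points are well above background, and dotted lines are each array's lowest signal with that mark (14.1 on the GnRH array, 16.3 on the vehicle array): Lhx4 and Gata2 are filled on both arrays, Tbx19 and Gh only on the GnRH array.

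Hesx1 had a signal of 11.2 ± 3.24 (scanner error) on the GnRH array and 11.97 ± 3.77 on the vehicle array. Neither carried the mark, and the difference of -0.72 is smaller in size than the combined error of 4.97. That difference is in processed signal, GnRH minus vehicle, without log2 or scaling. The differences set against combined errors for Gh, Prl, Tshb and Pomc are in the same units. Of the 308 negative control spots, 3 were at or above the Hesx1 signal on the GnRH array and 3 on the vehicle array. Hesx1 thus stood above nearly all negative controls on both arrays, but no fold is given for a probe that is well above background on neither.

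Lhx4 was well above background on both arrays, with a signal of 201 ± 20.3 on the GnRH array and 219 ± 22.2 on the vehicle array. Its log2 difference, GnRH minus vehicle, was -0.03 with a scanner error of 0.21 (0.981-fold). The other settings gave differences from -0.06 to -0.01. In bulk RNA, fewer cells that express a gene and less RNA per cell cannot be told apart.

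Gata2 was also well above background on both arrays, at 182 ± 18.5 on the GnRH array and 188 ± 19.1 on the vehicle array. Its log2 difference was 0.05 with a scanner error of 0.21 (1.04-fold), and the other settings gave 0.02 to 0.06. Probes printed 10 times give a measure of the spread between copies that rests on these arrays alone. For the 52 such probes with vehicle signals from 100 to 400, copies of 1 probe differed by an SD of 0.114 log2 units, so the Lhx4 and Gata2 differences are smaller than the spread between copies of a probe. That spread contains no variation between cultures.

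Among the genes measured on both arrays, 66 of 21219 (0.311%) were at least 2-fold higher on the GnRH array, while 28 (0.132%) were lower by 2-fold or more. Neither Lhx4 nor Gata2 is among them. The median log2 difference over all of these genes was -0.01, and 97.9% of them were within 1.5-fold.

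Pou1f1 had a signal of 2.91 ± 2.91 on the GnRH array and 3.41 ± 3.43 on the vehicle array, both of them surrogates that the scanner software puts in place of signals at background. Of the 308 negative control spots, 269 on the GnRH array and 268 on the vehicle array were at or above it. The spot's mean signal was 69.6 on the GnRH array with a local background of 70, and 74.1 on the vehicle array with a local background of 67.

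The hormones of the Pou1f1 lineage were also dim. Gh had a signal of 15.0 ± 3.20 on the GnRH array, where it was well above background, and 13.2 ± 3.56 on the vehicle array, where it was not. The difference of 1.79 is smaller than the combined error of 4.79, and the lower bound of the ratio came to 0.98, so no fold is given. The mark differs between the arrays for Gh while its signals lie within their errors of each other.

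Prl, the lactotrope hormone, had a signal of 5.57 ± 3.42 on the GnRH array and 4.005 ± 4.02 on the vehicle array, the vehicle value being a surrogate. Tshb, the thyrotropin beta subunit, was at 4.01 ± 3.14 on the GnRH array and 3.65 ± 3.67 on the vehicle array, again a surrogate on the vehicle array. Neither gene carried the mark on either array, and their differences of 1.56 and 0.36 are smaller than the combined errors of 5.27 and 4.83. On the vehicle array 108 of the 308 negative controls were at or above Prl and 202 at or above Tshb, while on the GnRH array 4 and 5 were.

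Pomc, the precursor of corticotropin and melanocyte-stimulating hormone, was at 9.14 ± 2.94 on the GnRH array and 16.1 ± 3.63 on the vehicle array. It was well above background on neither array and passed the looser mark on both. Its difference of -6.98 is larger in size than the combined error of 4.67. Copies of 1 probe with vehicle signals under 20 (132 probes) differed by an SD of 0.504 log2 units, and no fold is given for Pomc. That SD and the difference of -6.98 are in unlike units, so they cannot be compared directly.

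Tbx19 is the member with a large difference between the arrays. Its signal was 1048 ± 105 on the GnRH array, where it was well above background, and 8.08 ± 4.47 on the vehicle array, where it was not. With the vehicle array's lowest signal carrying that mark as its floor, the spot's signal was at least 68.6-fold higher on the GnRH array. That is 6.10 on the log2 scale, and the scanner error of the GnRH signal alone is 0.14. The bound describes this spot, and whether it holds for the gene was not tested. Without background correction the bound was 11.9-fold. The authors' deposited table lists 1080 for the GnRH sample and 8.31 for the vehicle sample. Of the 938 genes well above background on the GnRH array only, 7.14% had a bound of at least 2-fold, and 3 had a larger bound than Tbx19. The signal of Tbx19 comes from a single spot, so its neighbours on the slide were examined.

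The spots around Tbx19 were higher on the GnRH array too. Among the 21 non-control spots within 2 rows and 2 columns, the median log2 difference was 2.06 and the range -0.19 to 8.30. Of these, 15 were at least 2-fold higher on the GnRH array and 0 at least 2-fold lower, and 6 were well above background on the GnRH array only, against 0 on the vehicle array only. The same median, taken around each of the other 8 members, ran from -0.12 at Hesx1 to 0.02 at Pou1f1. Over all non-control spots its median was -0.05, with 95% of spots between -0.17 and 0.06. Only 43 of the 59305 non-control spots had a surrounding median as high as that of Tbx19 or higher, the Tbx19 spot among them.

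**Figure D2:**
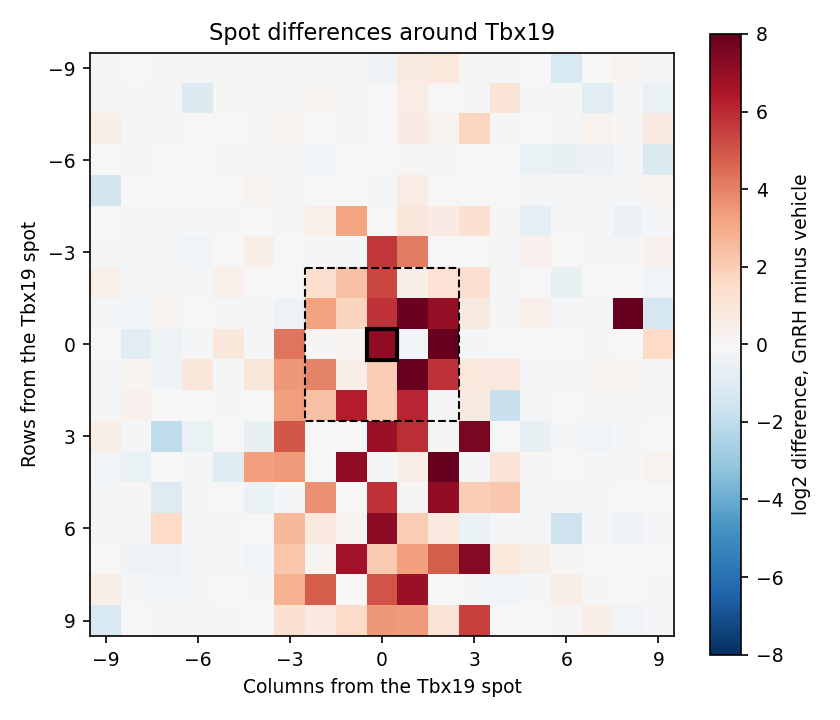
Log2 differences (GnRH minus vehicle, colour scale) of the spots up to 9 rows and 9 columns from Tbx19, which has the solid frame; the dashed frame is the window of 2 rows and 2 columns. Higher spots run down the middle of the map in a band that holds Tbx19.

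The difference of a neighbour went with how dim it was. The 12 neighbours with a vehicle signal under 100 had a median log2 difference of 5.55 (1.15 to 8.30), and 12 of 12 were at least 2-fold higher on the GnRH array. The 3 with a vehicle signal from 100 to 1000 had a median of 1.96, and 3 of 3 were at least 2-fold higher. The 6 with a vehicle signal over 1000 had a median of 0.10 (-0.19 to 0.51), and 0 of 6 were at least 2-fold higher. In mean signal before background subtraction, Tbx19 was 902 units higher on the GnRH array, and the 12 dim neighbours were 10.0 to 1651 units higher (median 537), 4 of them by more than Tbx19.

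**Figure D3:**
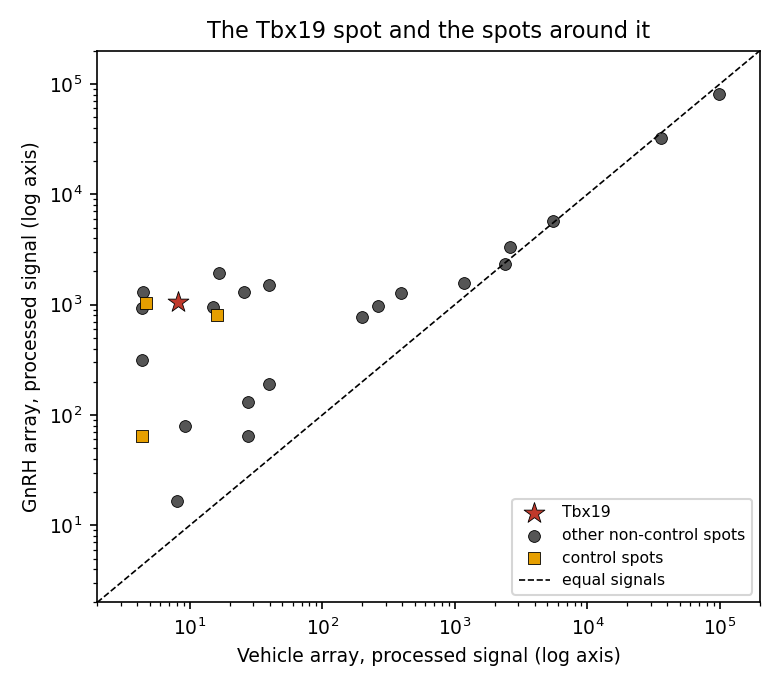
Processed signals on the GnRH array against the vehicle array (log axes) for Tbx19, the other 21 non-control spots and the 3 control spots within 2 rows and 2 columns. Spots with vehicle signals over 1000 lie near the dashed line of equal signals, and Tbx19 lies with dim spots far above it.

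The genes next to Tbx19 that were dim on the vehicle array were brighter on the GnRH array. Foxr1, a forkhead factor, had a signal of 1295 on the GnRH array and 25.5 on the vehicle array, and Htr2a, a serotonin receptor, had 959 on the GnRH array and 15.1 on the vehicle array. Gm20554 had 923 on the GnRH array and 4.38 on the vehicle array, 9530047P18Rik had 318 on the GnRH array and 4.38 on the vehicle array, and Rrad, a small GTPase, had 79.9 on the GnRH array and 9.24 on the vehicle array. Tmem33, a membrane protein, had 65.1 on the GnRH array and 27.7 on the vehicle array. Among neighbours with vehicle signals from 100 to 1000, Dusp1, a phosphatase of MAP kinases, was at 1278 on the GnRH array and 395 on the vehicle array. Prkd3, a protein kinase, was at 968 on the GnRH array and 265 on the vehicle array. The brightest neighbours were within 2-fold. Their log2 differences were 0.51 for Gzf1, 0.44 for Tk1 (thymidine kinase), 0.13 for LOC100504508 and 0.06 for Pex2. For Anapc11 (a subunit of the anaphase-promoting complex) and Mif (a cytokine) they were -0.07 and -0.19. In mean signal before background subtraction, Tk1 was 609, Gzf1 340 and LOC100504508 111 units higher on the GnRH array. The same change was -46.2 for Pex2, -3394 for Anapc11 and -15510 for Mif. The remaining neighbours above background are annotated only by an interval, a transcript accession or a probe number, and their log2 differences were between 2.06 and 8.30.

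Some neighbours have copies of the same probe elsewhere on the same array. The Prkd3 copy next to Tbx19 had 968 on the GnRH array, against 244 to 279 for its 8 copies outside the areas of the array where neighbouring spots differ together, and 265 on the vehicle array, against 252 to 284. The Anapc11 copy, a bright probe, had 32280 on the GnRH array, against 33001 to 35582 for 9 copies, and 36103 on the vehicle array, against 35601 to 37583. The 3 control spots in the window, 2 of which carry names of the ERCC spike-in RNAs, were brighter beside Tbx19 too. Control ETG07_105829 was at 1041 on the GnRH array, where its 11 copies elsewhere had a median of 3.38 and a highest signal of 6.04. Control ERCC-00019_219 was at 812, where 26 copies had a median of 15.0 and a highest signal of 26.3, and ERCC-00059_120 was at 64.3, where 27 copies had a median of 3.07 and a highest signal of 5.24. Of these 5 probes, 4 were above all their other copies on the GnRH array and 1 on the vehicle array, and the copy beside Tbx19 was a median of 20.9 times the copies' median on the GnRH array and 1.102 times on the vehicle array.

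**Figure D4:**
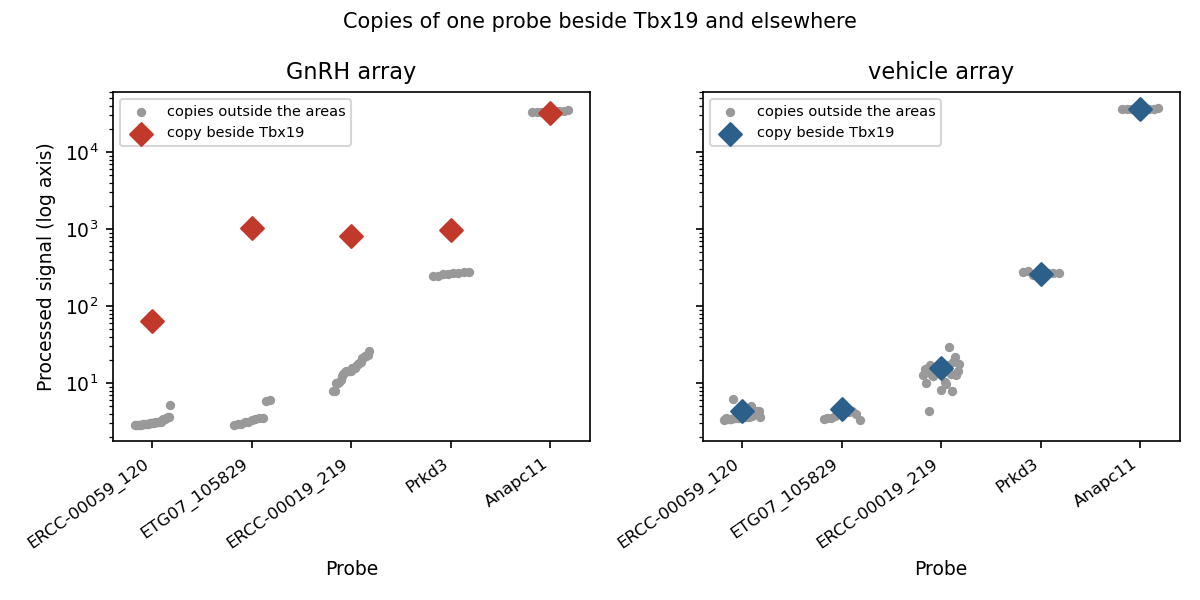
Processed signals (log axis) of the 5 probes beside Tbx19 that have copies elsewhere, on the GnRH array (left) and the vehicle array (right). Diamonds are the copy beside Tbx19 and grey points the copies outside the areas: on the GnRH array the diamonds of 4 probes stand apart, and on the vehicle array they lie with or close to the grey points.

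The local background, read from the glass around a spot, was also higher there on the GnRH array. For Tbx19 it was 95 on the GnRH array and 67 on the vehicle array. Over Tbx19 and its neighbours it ran from 74 to 99 on the GnRH array and from 64 to 68 on the vehicle array, where the 99th percentile of all non-control spots was 75 on each array. Only 0.0135% of all non-control spots on the GnRH array had a local background at or above that of Tbx19, against 68.5% on the vehicle array. The longest run of bases that the Tbx19 probe shares with the 21 window probes is 8 bases, and with any of 55601 other probes it is 15.

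Spots whose surrounding median was at least 0.3 in size made up 0.411% of the non-control spots, and connected groups of at least 4 of them, widened by 2 spots, formed 3 areas. The area of Tbx19 spans rows 15 to 42 and columns 141 to 151, holds 255 non-control spots and has a median log2 difference of 0.31. The other 2 areas hold 96 spots with a median of 0.12 and 251 spots with a median of -0.25, and the other 8 members lie outside all 3. Of the 67 genes whose bound was at least 2-fold on the GnRH array only, 35 lie in the area of Tbx19 and 27 outside all areas. Of the 3 genes with a larger bound than Tbx19, 2 lie in its area, and the third is Egr2, an early response factor, at least 143-fold higher and outside the areas. The part of these neighbours in the Tbx19 difference was not tested, and the gene's 1 probe has no copy elsewhere on the array.

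The wider lineage programmes were measured through other genes, and few passed 2-fold. The 12 lists hold 136 different genes, of which 82 were measured on both arrays, with 1 at least 2-fold higher on the GnRH array, 1 at least 2-fold lower and 75 within 1.5-fold. Another 5 were well above background on 1 array only, and 0 of these had a bound of at least 2-fold. The background over all genes is 0.311% higher and 0.132% lower.

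Of the 12 further genes of corticotropes and melanotropes, 10 were measured on both arrays, with a median log2 difference of 0.07, 1 at least 2-fold higher and 0 lower by that much. The gene past 2-fold was Nr4a1 (Nur77), an early response nuclear receptor known to act on the Pomc promoter. Its signal was 78369 on the GnRH array and 17380 on the vehicle array, a log2 difference of 2.27 with a scanner error of 0.20 (4.82-fold). The lowest of this list was Nr3c1, the glucocorticoid receptor, at -0.12. The Nr4a1 spot lies outside the areas. Avpr1b, a vasopressin receptor, and Pax7, the melanotrope factor, were well above background on neither array. Of the 10 on both arrays, Crhr1 was at 43.4 on the GnRH array and 45.9 on the vehicle array. Pcsk2 was at 21678 on the GnRH array and 25088 on the vehicle array.

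Of the 14 other genes of the Pou1f1 lineage, 8 were measured on both arrays, with a median of -0.05 and 0 past 2-fold either way. They ran from -0.09 for Zbtb20, a zinc finger factor of that lineage, to 0.19 for Dio2, a deiodinase. The receptors Ghrhr, Ghsr, Trhr and Sstr2, with Igsf1 and Thrb, were, like Pou1f1 itself, well above background on neither array. Other receptors of the list were among the 8 measured on both. Sstr5 was at 7407 on the GnRH array and 8259 on the vehicle array, and Drd2 at 33.4 and 36.7.

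Of the 15 early patterning factors, 10 were well above background on the GnRH array and 8 on the vehicle array, and the 8 measured on both had a median of -0.02. The only one past 2-fold was Pax6, an eye and forebrain factor also used in the early pituitary. Its log2 difference was -1.59 over 2 copies of its brighter probe. The copy in one of the areas had a signal of 127 on the GnRH array and 922 on the vehicle array, and the copy outside the areas had 93.2 on the GnRH array and 132 on the vehicle array. The median log2 difference around either copy was at most 0.06 in size, under the limit used to find the areas. The copy in an area was therefore there only through the widening of that area. The other Pax6 probe was well above background on neither array. It had signals of 6.02 on the GnRH array and 6.79 on the vehicle array. The part of the area in the Pax6 difference was not tested. Isl1, a LIM homeobox factor, was highest at 0.11. Sox9 was well above background on the GnRH array only, with signals of 18.3 on the GnRH array and 20.02 on the vehicle array. Six6, Gli2, Sox2, Sox3 and Hes1 were well above background on neither array.

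The gonadotrope genes, for comparison, were 6 of 7 well above background on both arrays, and the 6 had a median of -0.03, from -0.13 for Nr5a1 (steroidogenic factor 1) to 0.11 for Lhb, with Fshb on neither array. The partners and cofactors of the member factors were 13 of 14 well above background on both arrays, with a median of -0.07 and a range from -0.30 for Tle4, a Groucho corepressor, to 0.12 for Crebbp, a histone acetyltransferase. Neither list had a gene past 2-fold.

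The paralogs of the members were also measured. Of 5 GATA genes 3 were measured on both arrays, from -0.06 for Gata3 to 0.15 for Gata5. Of 15 T-box genes 8 were, from -0.33 for Tbx22 to 0.16 for Tbx10. Of 11 LIM homeobox genes 9 were, from -0.62 for Lhx9 to 0.28 for Lhx1, and of 13 POU genes 6 were, the lowest being Pou2f2 at -0.70. Of 16 prolactin family genes 3 were, from -0.43 for Prl3d1 to 0.05 for Prl6a1. None of these 5 lists had a gene at least 2-fold higher or lower.

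Genes of cell types that could have come with the members did not pass 2-fold either. Of 9 endothelial and blood genes, some of which can occur with Gata2, 6 were well above background on both arrays, with a median of 0.15 and a range from -0.01 for Kit, a receptor of blood progenitors, to 0.69 for Hba-a1, an alpha globin. Endothelial markers were mixed. Kdr, a receptor for vascular endothelial growth factor, was at 6310 on the GnRH array and 6742 on the vehicle array, and Pecam1, an adhesion molecule of endothelial cells, was at 58.4 on the GnRH array and 53.1 on the vehicle array. Cdh5 and Tek, which also mark endothelial cells, and Ptprc, which marks leukocytes, were well above background on neither array. Of 8 pituitary stem and folliculostellate genes, 4 were well above background on both arrays, from -0.16 for Prrx1 to 0.07 for Nes, and S100b, Sox2, Cdh1 and Aldh1a2 were on neither.

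**Figure D5:**
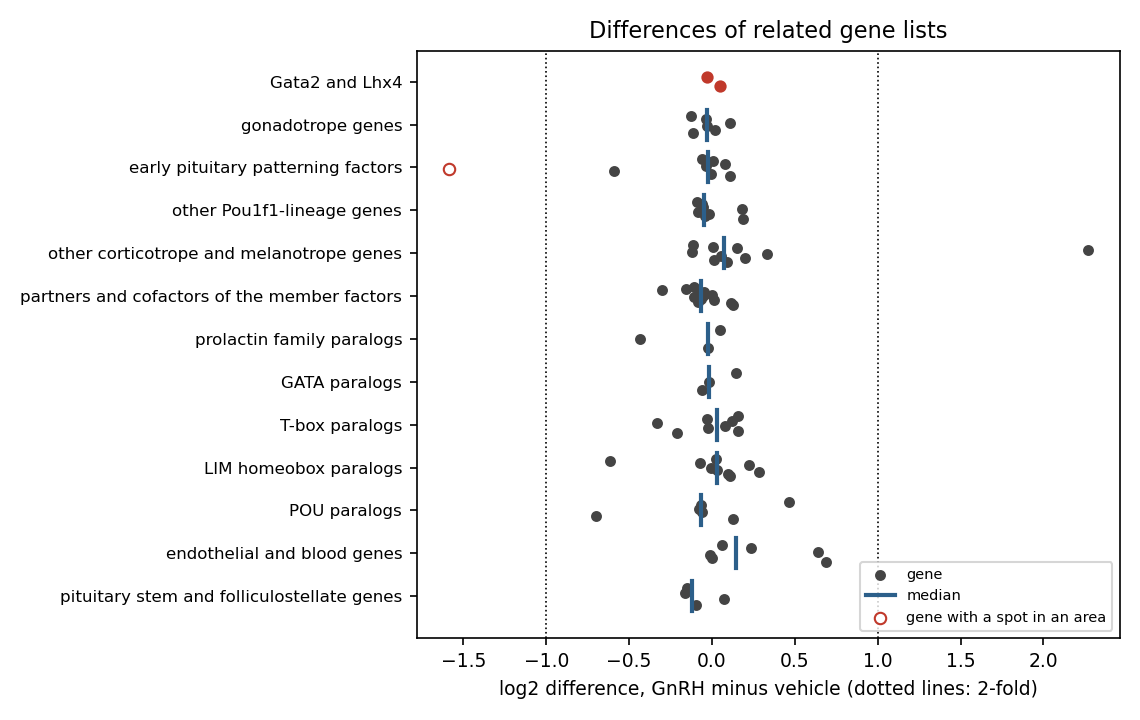
Log2 differences (GnRH minus vehicle) of the listed genes measured on both arrays, 1 point per gene, with the median of each list as a bar and Gata2 and Lhx4 in the top row. Dotted lines mark 2-fold: Nr4a1 lies to the right at 2.27, and Pax6, which has a spot in an area, to the left at -1.59.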

How the data were processed

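Total RNA of the 2 samples was labelled with Cy3, per the labels' protocols. The deposited scanner files hold a linear intensity for every spot, which Feature Extraction 10.7.1.1 had background-subtracted and detrended, per the file headers (9.5.1.1 per the submitters' processing notes). Both arrays lay on 1 slide. The authors' deposited table holds linear intensity values that correlate with the scanner values at r = 1.00 over 29665 probes. Its columns' medians are 28.4 each, and the normalization behind them is not given in the sources used here.

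For probe and gene values, outlier spots (94 on the GnRH array, 121 on the vehicle array) and control spots were left out. The neighbour and area values kept outlier spots, and the comparison of copies included control spots. Spots of a probe were averaged on the log2 scale, and each array's 75th percentile over probes was then subtracted. This scaling moves differences by 0.09 log2 units relative to none. A probe counted as well above background with at least 50% of its spots marked, and a gene took its brightest probe so marked on both arrays. A gene marked on 1 array only got a lower bound. Symbols came from RefSeq for 27235 probes, and all 9 members kept theirs. Errors are the scanner software's, with a multiplicative setting of 0.1. Named genes were the members, list genes past 2-fold with each list's lowest and highest, and genes within 2 rows and columns of Tbx19. Genes named for being on neither array or on 1 array only, Gnrh1, Cga, Gnrhr, Foxl2, Nr0b1, Kdr, Pecam1 and Egr2 were named after their values were seen. So were Sstr5, Drd2, Crhr1 and Pcsk2. Some genes that this rule takes and 1 member's probe sequence are not reported here. The members and lists were chosen with earlier results of these data known. The 2-fold counts and the search for areas were tested on simulated data. There the spot noise was the same at every signal, and 1 patch of spots was raised by a fixed amount. The bound for genes marked on 1 array only was not tested there. Python 3.11.15 and limma 3.58.1 were used.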

Additional observations from a re-analysis of the deposited data

Results flagged for a closer look

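The 3 control spots beside Tbx19 carried signal outside the main measurement. On the GnRH array, control ERCC-00059_120 had a signal of 64.3, ETG07_105829 of 1041 and ERCC-00019_219 of 812, each well above background there and not on the vehicle array, where they had 4.36, 4.64 and 16.0. Their copies elsewhere on the GnRH array had medians of 3.07, 3.38 and 15.0.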

How the results depend on the processing

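The Gata2 and Lhx4 differences moved by less than their scanner errors under all 7 alternatives each. The mean over probes could not move them, because each gene has 1 probe. Keeping outlier spots could act only through the percentile, because neither gene's spot was an outlier. By the positive-and-significant mark, the members above background numbered 8 on the GnRH array and 6 on the vehicle array, in place of 4 and 2. Among all genes the shares by that mark were 80.3% and 77%, in place of 63.3% and 61.6%. The count of genes 2-fold higher, 66, became 253 at 1.5-fold, 40 at 3-fold and 1259 without the filter on dim probes. It became 46 under normexp, 47 without background correction and 45 with the areas left out. The count 2-fold lower, 28, became 187 at 1.5-fold, 13 at 3-fold, 12 under normexp, 12 without background correction, 760 without the filter and 14 with the areas left out. The median around Tbx19, 2.06, became 1.79 within 1 row and column, 1.33 within 3, 1.30 without background correction, 1.56 for neighbours above background on both arrays and 0.10 for those with a vehicle signal over 1000, which was added after seeing the data. The bound for Tbx19 fell to 3.58 on the log2 scale (11.9-fold) without background correction, and was 6.07 by median scaling and by the authors' deposited table. No paired analysis was possible because each group is 1 array. Dim members are limited by signal over background. A member marked on 1 array only gets a bound, and a member marked on neither gets none.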

Other observations

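Tbx19's area held 29 spots of probes with copies elsewhere, and the 5 spots beside Tbx19 given above are among them. Of the 29 spots, 14 were above all copies outside the areas on the GnRH array and 3 on the vehicle array. The 5 spots beside Tbx19 account for 4 of the 14 and 1 of the 3. Over all 29, the median ratios to those copies were 2.04 on the GnRH array and 1.12 on the vehicle array. One copy of Slc2a4, the insulin-responsive glucose transporter, had a signal of 962 on the GnRH array, where its copies outside the areas had a median of 218. Slc2a4 was named after its values were seen.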
